A study of Mus musculus with 9 samples.

Results

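Tfcp2l1, Elf3, Elf5, Ehf, Grhl1, Grhl3, Klf5, Tfap2a and Tfap2c encode transcription factors of ductal and other epithelial cells. These 9 genes are followed here among 23366 gene entries. They were picked by name, with their levels in the 2 media at P10 and P25 already known, so those differences between media are given as a description and without a test. RNA-seq counts came from mSGc, an epithelial line of the submandibular gland that immortalized spontaneously, and from IMOK, an immortalized mouse oral keratinocyte line. Both lines carry the C57BL/6 strain label. mSGc was derived from an adult male mouse and grown as monolayers, with 1 library each at P2, P4, P10 and P25 in serum free medium (SFM) and at P10 and P25 in serum containing medium (SCM). SFM held EGF, FGF, N2 supplement, insulin and dexamethasone. SCM held serum, retinoic acid, EGF, triiodothyronine, hydrocortisone, insulin, transferrin and selenite. The labels call these progenitor and differentiating media, which were taken as SFM and SCM. IMOK has 3 replicate libraries labelled early passage in its own medium, whose composition is not given in the sources used here. The paper puts IMOK at the passage number of its P10 mSGc data. No label ties the IMOK libraries to separate cultures, so p-values measure the spread between these libraries, which may be technical. mSGc stands for 1 derivation of 1 line, and cell line, medium and experiment cannot be told apart in its comparison with IMOK.

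The salivary duct carries the primary saliva made by acinar cells to the mouth and takes back sodium and chloride on the way. Its cells form a tight simple epithelium over basal cells, and the identity of such layers is held by a small set of transcription factor families. Grainyhead proteins maintain adherens and tight junctions, and the epithelial ETS proteins act on luminal and secretory genes. KLF proteins balance growth against differentiation, and AP-2 proteins act in surface ectoderm and its glands. Tfcp2l1, of the related CP2 branch, marks ducts of the salivary gland and kidney. The labelled epithelial identity fitted its markers here, as the basal keratin and Trp63 list (Krt5, Krt14, Krt15, Trp63) summed to 8037 to 18673 TPM in mSGc and the 4 ductal keratins (Krt7, Krt8, Krt18, Krt19) to 1786 to 13036 TPM. TPM, the level of a gene per length scaled to the same total in every library, was computed from the counts. The 4 endothelial markers summed to at most 0.945 TPM and the 6 immune markers to at most 4.10 TPM in mSGc. The 7 fibroblast markers summed to 19.1 TPM at P2 and to 0.320 to 4.48 TPM in the other mSGc libraries. In IMOK the basal list summed to 7681 to 8425 TPM and the ductal keratins to 1755 to 3591 TPM. The ductal sums of mSGc in SFM at P10 (1800 TPM) and P25 (1786 TPM) lay within that IMOK range. The 6 acinar markers summed to 14.1 to 130 TPM in mSGc and to 160 to 220 TPM in IMOK. These sums rested on few markers. Aqp5 gave 212.7 of the 212.9 TPM in IMOK replicate 1. It was at 111 and 72.9 TPM in replicates 2 and 3, where Prol1, Pip and Amy1 made up most of the rest. The highest mSGc sum, at P4, came mostly from Prol1 (60.0 TPM) and Pip (59.1 TPM). Bhlha15 was at most 0.478 TPM and Smgc at most 1.76 TPM in any library. Total counts ran from 6237884 (P25 in SCM) to 18444963 (IMOK replicate 1), so 3 counts, the limit that a count of 0 allows, equal 0.163 to 0.481 CPM (counts scaled to library size). That limit and the intervals given below cover counting error alone.

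Annotated promoters of Tfcp2l1, Elf3, Grhl1 and Tfap2a are shown so that the start regions of these genes can be read beside their levels. The counts do not tell which start site was used, and promoter use was not tested. RefSeq's promoter table (GRCm38.p6; 250 bases before and 50 after the start) held 9 entries for 6 of the 9 genes, with no entry for Ehf, Klf5 or Tfap2c. Of the 2 entries each for Grhl1 and Tfap2a, the one nearest the start of the counted gene model is shown. Each sequence below matched mm9, the build of the counts, at exactly 1 place. Capitals mark the letters GGAAG (ETS), GCCNNNGGC (AP-2), AACCGG (grainyhead), CCACCC and CCGCCC (both KLF), searched on both strands.
Tfcp2l1: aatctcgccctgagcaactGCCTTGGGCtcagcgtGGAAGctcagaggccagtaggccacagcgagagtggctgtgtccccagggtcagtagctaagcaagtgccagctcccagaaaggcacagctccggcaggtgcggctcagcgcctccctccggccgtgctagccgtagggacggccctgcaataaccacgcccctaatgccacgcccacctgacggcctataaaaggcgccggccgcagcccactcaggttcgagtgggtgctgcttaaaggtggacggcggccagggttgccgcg
Elf3: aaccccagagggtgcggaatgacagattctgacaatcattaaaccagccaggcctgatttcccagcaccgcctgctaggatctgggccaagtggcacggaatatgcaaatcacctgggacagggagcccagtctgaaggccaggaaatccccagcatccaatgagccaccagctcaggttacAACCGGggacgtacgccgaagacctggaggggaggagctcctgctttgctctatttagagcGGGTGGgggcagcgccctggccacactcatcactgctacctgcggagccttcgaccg
Grhl1: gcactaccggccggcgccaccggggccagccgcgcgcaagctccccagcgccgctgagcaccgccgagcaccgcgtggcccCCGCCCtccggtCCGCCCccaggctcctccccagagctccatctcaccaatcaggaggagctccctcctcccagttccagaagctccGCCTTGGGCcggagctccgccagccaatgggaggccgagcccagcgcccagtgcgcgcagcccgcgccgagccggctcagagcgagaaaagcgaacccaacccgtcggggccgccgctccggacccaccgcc
Tfap2a: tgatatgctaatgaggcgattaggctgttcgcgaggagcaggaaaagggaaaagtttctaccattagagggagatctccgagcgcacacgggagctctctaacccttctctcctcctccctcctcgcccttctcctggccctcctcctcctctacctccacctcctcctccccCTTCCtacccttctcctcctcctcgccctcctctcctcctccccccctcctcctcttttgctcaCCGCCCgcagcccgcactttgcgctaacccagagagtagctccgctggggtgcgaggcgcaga

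Tfcp2l1 lies at chr1:120524522-120581745 on the plus strand and its promoter at chr1:120524272-120524571. This sequence held GCCNNNGGC at position -231 from the start site and GGAAG at -215. It also held TATAAA, searched on its own strand and left in lower case, at -28. Among 32851 promoters of the same length, 16.6% held GCCNNNGGC, 71.4% held GGAAG and 8.32% held TATAAA. The Elf3 promoter, chr1:137155000-137155299 on the minus strand, held AACCGG at -68, as did 6.83% of all promoters, and CCACCC at -7, as did 31.5%. In the Grhl1 promoter, chr12:25256902-25257201 on the plus strand, GCCNNNGGC stood at -82 and CCGCCC, found in 35.7% of all promoters, 2 times, the first at -169. For Tfap2a, chr13:40829115-40829414 on the minus strand, whose RefSeq start lies 28 bases inside the counted gene model, GGAAG stood at -77 and CCGCCC at -13. The second Grhl1 entry (chr12:25265334-25265633) held GGAAG 2 times, CCACCC 1 time and no GCCNNNGGC, and the second Tfap2a entry (chr13:40830240-40830539) held GGAAG 3 times and CCGCCC 1 time. AGGTCA, the short element of retinoid receptors, was in none of the 9 windows and in 16.3% of all promoters. Such matches are of letters and say nothing of binding.

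Tfcp2l1, the CP2 factor of salivary and renal ducts, had the widest range over the 9 libraries of the genes with counts in each of them. Its level in SFM was 91.5 TPM at P2, 23.0 at P4, 34.3 at P10 and 1.81 at P25. In SCM it was 484 TPM at P10 and 29.1 at P25. Both SCM libraries thus lay above the SFM library of the same passage, by 14.1-fold at P10 and 16.0-fold at P25, while the P25 library in SCM lay below P10 in SFM. At P10 in SCM the gene stood at percentile 98.93 of all entries by TPM. The 3 IMOK libraries held 2.48, 0.363 and 0.229 TPM, so that replicate 1 exceeded the P25 library of mSGc in SFM and the other two lay below every mSGc library. No other entry of the table overlapped the span of Tfcp2l1, or of any other of the 9 genes.

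Grhl1, a grainyhead factor that acts on desmosomal cadherin genes in skin, followed a similar course over a smaller range. In SFM it was at 16.5 TPM at P2, 17.7 at P4, 11.4 at P10 and 1.20 at P25, and in SCM at 36.7 at P10 and 9.38 at P25. The SCM library was 3.22-fold higher at P10 and 7.82-fold higher at P25, where the SFM library held 36 counts and the SCM library 104. IMOK had 6.42, 3.68 and 2.01 TPM. The mSGc library at P25 in SFM lay below these 3 and the other 5 mSGc libraries above them.

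Grhl3, the grainyhead factor required for the epidermal barrier and for closure of the neural tube, was steady in SFM from P2 to P10. Its levels were 14.3, 14.0 and 14.2 TPM in these 3 libraries, followed by 4.87 TPM at P25. In SCM it was at 24.4 TPM at P10 and 29.6 at P25. The ratio of the media was 1.72-fold at P10 and 6.07-fold at P25, the second of which came with the low SFM library. IMOK, at 12.2, 27.2 and 16.9 TPM, overlapped the mSGc libraries. Grhl3 was under the 2-fold limit used below at P10, with a log2 ratio of 0.74 once 1 TPM was added to each value. On that scale Ehf, at 1.26 at P25 from few counts, was the nearest factor inside the limit at both passages. Grhl1 came next, at 1.61 at P10.

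Elf3, an ETS factor of simple and stratified epithelia, differed by nearly the same ratio at both passages. In SFM it was at 15.6 TPM at P2, 24.0 at P4, 15.0 at P10 and 7.29 at P25, against 117 TPM at P10 and 54.9 at P25 in SCM. The SCM level was 7.77-fold higher at P10 and 7.53-fold higher at P25, and both SCM libraries lay above every SFM library. IMOK, with 23.4, 21.2 and 14.8 TPM, lay within the range of mSGc in SFM.

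Ehf, a second epithelial ETS factor, found in glandular and airway epithelia, had the largest ratio of P10 to P25 among the genes with more than 3 counts in every library. Its SFM levels were 58.6 TPM at P2, 28.4 at P4, 24.8 at P10 and 0.268 at P25, and its SCM levels 146 TPM at P10 and 2.03 at P25. Both P25 libraries lay below the 3 IMOK libraries (10.9, 14.4 and 4.95 TPM), and the other 4 mSGc libraries above them. SCM exceeded SFM by 5.88-fold at P10. At P25 the ratio rested on 10 counts in SFM and 28 in SCM and was 6.93 in CPM, with an exact binomial 95% interval of 3.27 to 16.0.

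Elf5, the ETS factor of alveolar cells in the mammary gland, was at the edge of detection. mSGc in SFM held 20 counts at P2, 36 at P4, 2 at P10 and 0 at P25, and in SCM 29 at P10 and 1 at P25. Expressed per length these are 1.68, 1.79, 0.194, 0, 2.04 and 0.142 TPM. The SCM to SFM ratio at P10 was 9.78 in CPM with an interval of 2.47 to 84.6, and at P25 both libraries were at or under 3 counts, so no ratio is given. IMOK held 2, 4 and 0 counts.

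Klf5, a KLF factor of dividing basal and crypt epithelium, varied little. The 6 mSGc libraries ran from 21.6 TPM (P4) to 44.5 TPM (P25 in SCM) with a median of 29.5. SCM over SFM was 0.983-fold at P10 and 1.87-fold at P25. IMOK had 60.6, 38.8 and 26.4 TPM and overlapped mSGc.

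Tfap2a and Tfap2c, the AP-2 factors that act side by side in embryonic surface ectoderm, did not share the pattern of the ETS and grainyhead genes. Tfap2a ran from 27.5 to 40.6 TPM in mSGc with a median of 33.5, and stood at 21.8, 21.9 and 17.5 TPM in IMOK. Every mSGc library was above every IMOK library, and the SCM to SFM ratios were 1.10 at P10 and 1.34 at P25. Tfap2c was at 15.8 TPM at P2, 24.7 at P4, 41.0 at P10 and 40.1 at P25 in SFM, and at 24.9 and 34.8 TPM in SCM at P10 and P25. Its SCM libraries were lower than those in SFM, at 0.609-fold at P10 and 0.867-fold at P25, and IMOK (13.1, 5.37 and 2.16 TPM) lay below all 6 mSGc libraries.

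**Figure D1:**
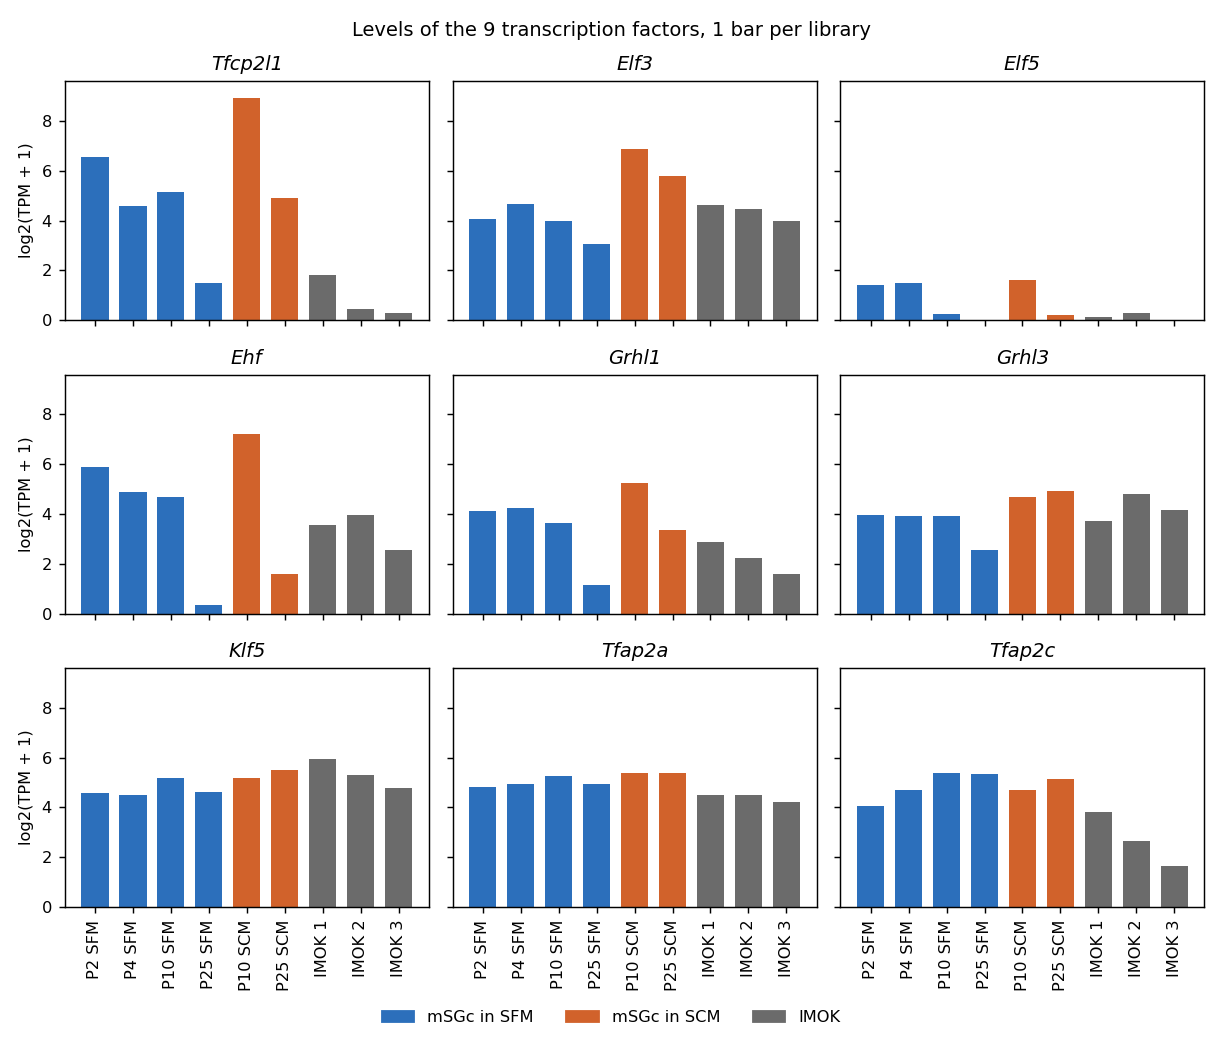
Level of each transcription factor as log2(TPM + 1) in the 9 libraries, 1 bar per library, with mSGc in SFM in blue, mSGc in SCM in orange and IMOK in grey. Tfcp2l1 reached 484 TPM at P10 in SCM and 1.81 TPM at P25 in SFM, while Tfap2a stayed between 27.5 and 40.6 TPM in mSGc.

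The order of the 9 genes by TPM changed with the library. Tfcp2l1 led at P2 in SFM and at P10 in SCM, where Ehf (146 TPM) and Elf3 (117 TPM) came next. At P25 in SFM Tfap2c (40.1 TPM), Tfap2a (30.0 TPM) and Klf5 (23.7 TPM) were highest, and Tfcp2l1, Grhl1, Ehf and Elf5 were each under 2 TPM. Elf5 was lowest in all mSGc libraries. P10 in SCM was the highest mSGc library for 6 of the 9 genes and for 25.2% of all genes, and P25 in SFM the lowest for 6 of the 9 and for 27.5% of all genes. Over 6 libraries without replicates, neighbours in these orders cannot be set apart beyond a spread.

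A filter asked for 10 or more counts in 2 or more libraries of P10 and P25, and 8 of the 9 genes passed it. Of these 8, Tfcp2l1, Elf3, Ehf and Grhl1 were at least 2-fold higher in SCM at both passages, and 0 were at least 2-fold lower at both. Over the 11959 genes with such counts, 1.8% were 2-fold higher at both and 0.644% were 2-fold lower. The comparison of media chose the 9 genes, so nothing is read from the gap between these shares. On the log2(TPM + 1) scale, which understates the change of genes with low levels, the median ratio of the 8 was 1.17 at P10 and 1.75 at P25, beside 0.14 at both passages for all 11959 genes, and the ratios given here include that shift. Elf5 did not pass the count filter. Fewer cells of a type and less RNA per cell cannot be told apart in these bulk libraries.

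**Figure D2:**
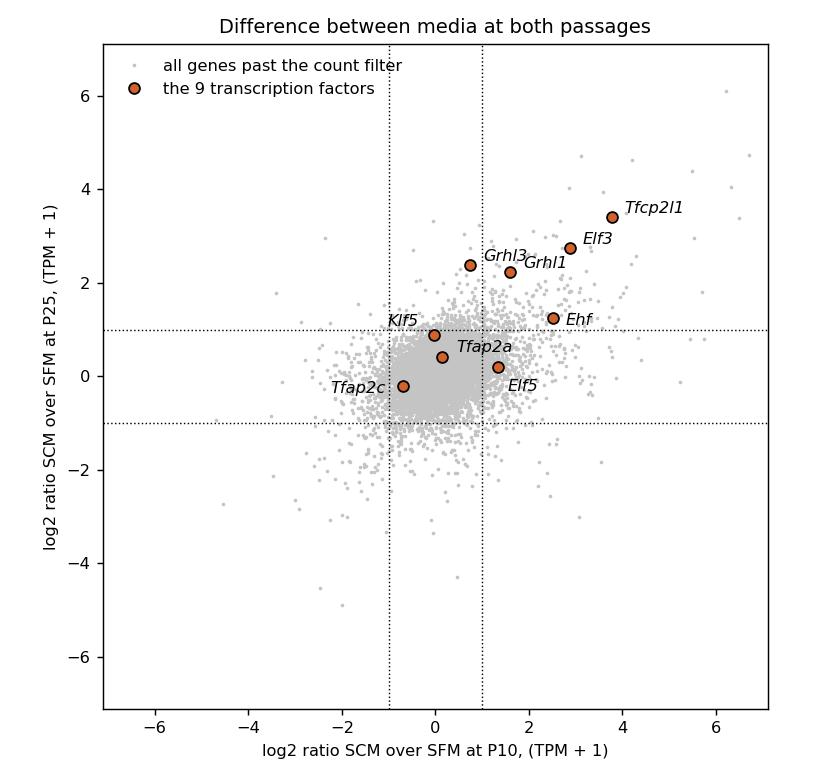
log2 ratio of SCM over SFM from TPM + 1 at P10 (x axis) against that at P25 (y axis), with each of 11959 genes as a grey point, the 9 transcription factors as orange points and dotted lines at 2-fold. Tfcp2l1, Elf3, Ehf and Grhl1 lie beyond the 2-fold lines at both passages, Grhl3 at P25, Elf5 (too few counts for the filter) at P10, and Klf5, Tfap2a and Tfap2c at neither.

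Both P25 libraries had less of several of these factors than the P10 library in the same medium. Tfcp2l1 at P10 was 18.9-fold its P25 level in SFM and 16.6-fold in SCM. For Ehf the same ratios were 92.6 and 71.8, and for Grhl1 9.50 and 3.91. For these 3 genes the P25 level was lower in both media. Elf3 was 2.06-fold and 2.12-fold higher at P10 from TPM, and just under 2-fold in SFM once 1 TPM was added to each value. Tfcp2l1, Ehf and Grhl1 were at least 2-fold lower at P25 in both media on the log2(TPM + 1) scale, as were 5.03% of all genes. None of the 9 was at least 2-fold higher at P25 in both media, as were 1.66% of all genes. The median log2 ratio of P25 over P10 was -1.16 in SFM and -0.54 in SCM for the 8 genes with enough counts, and -0.18 and -0.15 for all genes.

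Passage was tested over the 6 mSGc libraries with edgeR's quasi-likelihood test, using the log2 passage number with medium in the same fit. For Grhl1 the estimate was -0.96 on the log2 scale per doubling of the passage number (SE 0.27, Benjamini-Hochberg adjusted p = 0.201) and for Tfcp2l1 -1.37 (SE 0.40, adjusted p = 0.219). Ehf had -1.78 (SE 0.67, adjusted p = 0.319 by edgeR) and Elf5, with 3 of its 6 libraries at or under 3 counts, -1.85 (SE 0.47, adjusted p = 0.161 by edgeR). These 4 had the lowest estimates of the 9 genes. Those for Elf3 and Grhl3 were smaller, at -0.37 (SE 0.16, adjusted p = 0.390 by edgeR) and -0.24 (SE 0.16, adjusted p = 0.575 by edgeR). Tfap2c had the opposite sign, 0.44 (SE 0.10, adjusted p = 0.117 by edgeR), and Klf5 and Tfap2a were at 0.16 and 0.11 with SEs of 0.11 and 0.08.

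By edgeR 0 of the 9 genes passed an adjusted p of 0.05, where 0.49% of 12451 genes did (0.0482% higher and 0.442% lower). At an unadjusted p under 0.05 there were 5 of 9, Tfcp2l1, Elf5, Ehf and Grhl1 lower and Tfap2c higher with passage, beside 13.2% of all genes. DESeq2's Wald test called the same 5 genes, beside 5.62% of all genes. Fitted on P10 and P25 alone with medium as a block, edgeR called Tfcp2l1, Ehf and Grhl1, beside 7.66% of genes, and it called these 3 also without the P10 library in SFM (2.64% of genes) and with an untransformed passage number (1.01% of genes). The P10 and P25 libraries, whose levels were known when the 9 genes were chosen, enter each of these fits and are the whole of the fit on P10 and P25 alone, so its calls are a description and support nothing about passage. Without the P25 library in SFM the number at an unadjusted p under 0.05 fell to 1, and the genes called in the whole table fell from 61 to 0. The fall is therefore not read as particular to the 9 genes. Grhl3 had a log2 change of 0.11 in that fit.

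For mSGc against IMOK, p-values are given for the 5 genes that are not on the study's own list of genes enriched in mSGc. The paper drew up that list on mSGc at P10 against IMOK and other cell lines, so it shares libraries with this fit. The fit here pools all mSGc libraries against IMOK alone. Tfap2a was higher in mSGc by 0.97 on the log2 scale (SE 0.18, adjusted p = 0.00725 by edgeR's quasi-likelihood test), with a mean of 34.2 ± 5.80 TPM (SD, n = 6) against 20.4 ± 2.51 TPM (SD, n = 3). It was the 1 of 5 that passed, beside 14.9% of 12885 genes (6.58% higher and 8.3% lower in mSGc), and it passed under all 15 alternatives run. That share covers all genes, those on the study's list included, whereas the 5 leave them out, so nothing is read from the gap. Tfap2a and the other factors were chosen with earlier results of these data known, so these p-values describe the libraries and are no independent test. Ehf had a log2 difference of 2.23 (SE 1.34, adjusted p = 0.293 by edgeR) and Elf5 of 3.31 (SE 1.41, adjusted p = 0.144 by edgeR) from counts near the limit of detection. These 2 genes varied widely between libraries. Klf5 was at -0.22 (SE 0.29, adjusted p = 0.661 by edgeR) and Grhl3 at 0.017 (SE 0.45, adjusted p = 0.988 by edgeR). The signs of these last estimates changed when single libraries were left out.

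The other 4 genes, all on the study's list, are described without a test. Tfcp2l1 had a mean of 111 ± 185 TPM (SD, n = 6) in mSGc and 1.02 ± 1.26 TPM (SD, n = 3) in IMOK, and a fitted log2 difference of 6.91 (SE 1.83). Tfap2c differed by 2.44 (SE 0.54), Grhl1 by 2.13 (SE 0.77) and Elf3 by 1.13 (SE 0.73). Of the 9 genes, Tfap2a and Tfap2c had all 6 mSGc libraries above all 3 IMOK libraries, as did 5.22% of genes tested. IMOK replicate 1 was the highest of the IMOK libraries for 5 of the 9 genes and for 56.8% of all genes.

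**Figure D3:**
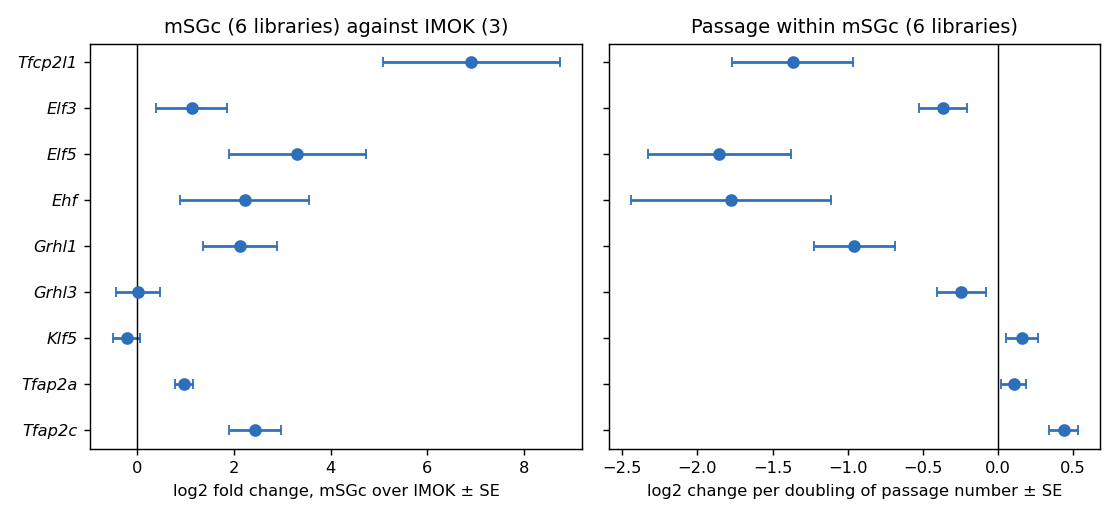
Log2 changes from edgeR with bars of 1 SE for the 9 transcription factors, for mSGc (6 libraries) over IMOK (3 libraries) on the left and per doubling of the passage number within mSGc on the right. Tfap2a has a narrow bar at 0.97 on the left, and on the right Tfcp2l1, Elf5, Ehf and Grhl1 lie lowest, between -1.85 and -0.96.

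Over the 6 mSGc libraries the factors higher in SCM varied together, and some varied as closely with factors outside that group. Among Tfcp2l1, Elf3, Ehf and Grhl1 Pearson's r of log2(TPM + 1) ran from 0.47 (Ehf with Elf3) to 0.93 (Grhl1 with Tfcp2l1), with a median of 0.83 over 6 pairs. Their 16 pairs with Grhl3, Klf5, Tfap2a and Tfap2c ran from -0.66 to 0.87, with a median of 0.32. Elf3 gave 0.87 with Grhl3 and 0.74 with Tfap2a, more than with Ehf. Tfap2a and Klf5 gave 0.94. Tfap2c ran opposite to Elf5 at -0.85 and to Ehf at -0.66. These are descriptions over 6 libraries that share a line and differ in medium, passage and depth, and the choice of genes by medium enters them. The genes whose course was most like a member's, among 9013 with at least 10 TPM in 2 libraries, were Brap and Tm2d1 for Tfcp2l1 (r of 0.995 and 0.992) and Tmem33 and Kank1 for Ehf (0.998 and 0.995). Kank1 moved from 4.11 to 24.2 TPM, whereas Tm2d1 moved from 27.2 to 64.0 TPM over the 6 libraries. For the rest these were Heatr5a and Uggt1 (Elf3), Trim2 and Clcn4-2 (Elf5), 1810026J23Rik and 6030458C11Rik (Grhl1), E2f2 and Arl8b (Grhl3), 2610018G03Rik and Dimt1 (Klf5), Chd9 and Phka2 (Tfap2a), and Epdr1 and Pecr (Tfap2c). E2f2, a cell cycle factor, ran from 3.97 TPM at P25 in SFM to 21.4 TPM at P25 in SCM, the same extremes as Grhl3.

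Relatives of these factors were read in the same 4 libraries. None of the other ETS (12), grainyhead and CP2 (3) or KLF (8) genes with enough counts was at least 2-fold different in the same direction at both passages, beside the 1.8% higher and 0.644% lower of all genes. Grhl2, the grainyhead factor that maintains epithelial junctions, lay between 35.8 and 59.7 TPM in mSGc and between 46.6 and 50.6 TPM in IMOK. Klf4, a KLF factor of differentiating epithelium, ran from 15.9 to 101 TPM in mSGc, a wider range than that of Klf5, and Klf9 was 1.43-fold higher in SCM at P10 and 4.62-fold at P25. Ets1, an ETS factor of many cell types, had the highest ratio of the ETS relatives at P10, at 2.26-fold at P10 and 1.78-fold at P25. Among the AP-2 genes Tfap2b, Tfap2d and Tfap2e were at most 0.266 TPM in any library. Spdef, an ETS factor of goblet and other secretory cells, was at most 0.693 TPM.

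Genes of the lists that surround these factors, 110 in all on 9 lists, gave 78 with enough counts at P10 and P25. Of these, 17 were at least 2-fold higher in SCM at both passages (1.8% of all genes) and 0 lower (0.644% of all genes). In the joint fit with passage, edgeR called 0 of 83 list genes for medium at an adjusted p of 0.05, 30 at an unadjusted p under 0.05 (8.18% of all genes), and 0.0241% of all genes at the adjusted threshold. DESeq2 called 13 (2.18% of all genes), and edgeR on P10 and P25 alone with passage as a block 11 (1.03%). The lists were chosen with earlier results of these data known. Counts of list genes, here and below, are therefore a description, and nothing is read from their gap to all genes. Among other epithelial factors Foxa1, a forkhead factor of glandular epithelia, was 4.40-fold higher in SCM at P10 and 3.19-fold at P25, and Foxc1, a forkhead factor of mesenchyme and sweat glands, 3.21-fold and 2.29-fold. The luminal list had 8 such genes of 23. Cldn4 and Cldn7, claudins of tight junctions, were 4.82-fold and 4.43-fold higher at P10 and 2.55-fold and 6.10-fold at P25. Krt7, a keratin of ducts, was 8.69-fold and 26.3-fold higher.

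Of the duct transport genes, 1 of 6 was at least 2-fold higher in SCM at both passages, beside 1.8% of all genes. It was Cftr, the chloride channel of the ductal apical membrane, which ran from 0.172 TPM in SFM to 8.72 TPM in SCM at P10 and from 0.131 to 1.41 TPM at P25. None of the granular duct products passed the count filter, and Egf, the growth factor of granular ducts, was at most 16.6 TPM, at P4. The barrier list had 5 of 13. Tgm1, the transglutaminase of the cornified envelope, was 4.88-fold higher at P10 and 4.06-fold at P25, and Krt4, a keratin of oral mucosa, went from 0.204 to 88.2 TPM and from 0.386 to 94.8 TPM. Krtdap, a protein of differentiating keratinocytes on the same list, was at 0.650-fold at P10 and 0.214-fold at P25.

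**Figure D4:**
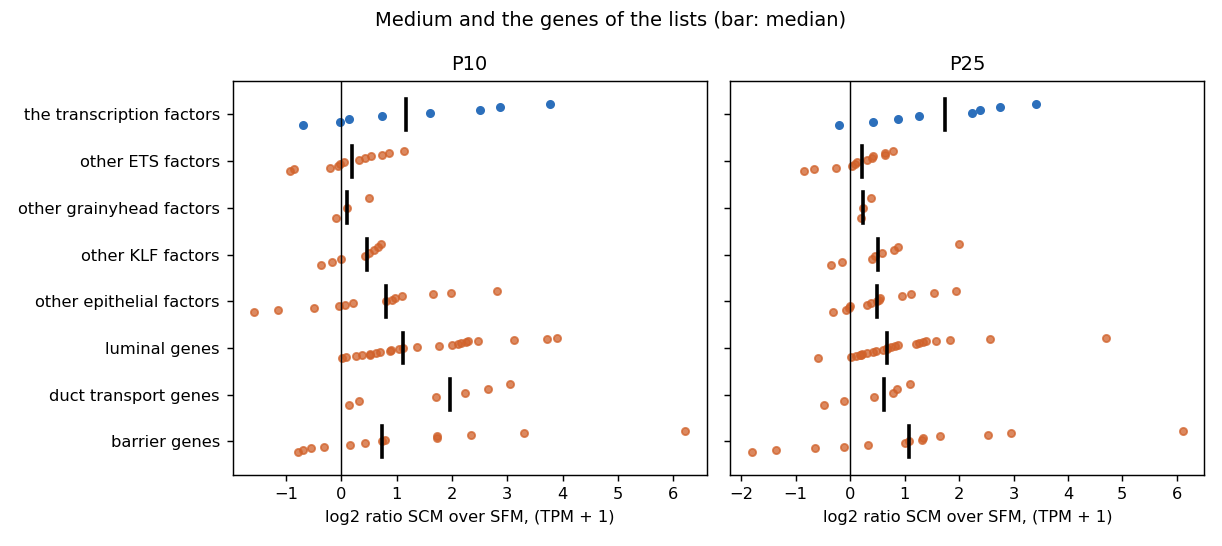
log2 ratio of SCM over SFM from TPM + 1 at P10 (left) and P25 (right), with 1 point per gene that passed the count filter, in blue the 8 transcription factors that did so and in orange 7 lists of related genes, and black bars at the medians. The other ETS genes centre on 0.19 and 0.22 and the luminal genes on 1.12 and 0.68, while the transcription factors centre on 1.17 and 1.75.

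The summed ductal keratins were higher in SCM at both passages, but in SFM their sum was nearly the same at P10 and P25, where Tfcp2l1, Ehf and Grhl1 were lower at P25. The summed level of the 4 ductal keratins was 1800 TPM in SFM and 10562 TPM in SCM at P10, and 1786 against 6579 TPM at P25, with 13036 TPM at P2 and 6348 at P4. Krt8, Krt18 and Krt7 made up most of each sum. In SFM Krt8 went from 672 TPM at P10 to 1172 TPM at P25, while the other keratins of the list were lower at P25. Krt7 went from 372 to 97.8 TPM, Krt18 from 738 to 516 TPM and Krt19 from 18.2 to 0.428 TPM. The basal list was lower in SCM at both passages (14583 against 10211 TPM at P10, 18673 against 8037 at P25), and its Krt5, the keratin of basal cells, was 0.424-fold and 0.273-fold. Krt5 was the 1 of the 4 basal markers at least 2-fold lower at both passages. Krt14 was 1.25-fold at P10 and 0.581-fold at P25, and Trp63 0.704-fold and 1.32-fold. The part of these cell type markers in the levels of the 9 factors was not tested. The 5 myoepithelial markers summed to 769 TPM at P2 and between 7.97 and 125 TPM in the other mSGc libraries. They summed to 961 TPM in IMOK replicate 1, against 10.2 and 15.4 TPM in replicates 2 and 3. The libraries in which Tfcp2l1 was highest within SFM and within IMOK thus also had the highest myoepithelial sums. The other libraries did not all keep that order. In SFM the sum was 11.3 TPM at P10 and 50.7 TPM at P25, where Tfcp2l1 was at 34.3 and 1.81 TPM. The fibroblast sum, too, was highest at P2 among the mSGc libraries and in replicate 1 among those of IMOK (6.71 TPM). With P2 left out, edgeR called 0 of 12359 genes for passage, so the lack of calls among the 9 in that fit says nothing about them. Leaving out IMOK replicate 1 left Tfap2a called, beside 1918 of 13064 genes.

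For passage, edgeR called 2 of 83 list genes, both lower, beside 0.49% of all genes. These were Cldn4 (-1.17 on the log2 scale per doubling, SE 0.13, adjusted p = 0.0332 by edgeR) and Tmprss2, a membrane protease of luminal cells (-1.43, SE 0.21, adjusted p = 0.0493 by edgeR). Neither call held without P2 or without P25 in SFM, where edgeR called 0 of 12359 and 0 of 12280 genes. The loss is thus not particular to these 2 genes. For mSGc against IMOK, edgeR called 13 of 84 list genes, 7 higher and 6 lower, near the 14.9% of all genes. Higher in mSGc were Cdh1 (E-cadherin, 1.29, SE 0.27), the splicing factor Esrp2, Tmprss2, the potassium channel Kcnn4, Krt4, Cnfn and Krtdap. Among those lower were Elk3, Klf2, Gata6 (-7.81, SE 0.72), Sox2 and Spint1. Gata6, a GATA factor of endoderm and skin appendages, was at 7.49, 5.56 and 4.76 TPM in IMOK and at most 0.0592 TPM in mSGc. Leaving out IMOK replicate 2 or 3 lowered the number of list genes called from 13 to 2 (beside 5.61% of all genes) and 3 (7.14%).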

How the data were processed

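RNA-seq counts of 6 mSGc libraries and 3 IMOK libraries were used. Per the submitters' processing notes the authors used TopHat2 2.1.1 and Bowtie2 2.2.6 on mm9 and deposited raw counts per gene from featureCounts 1.5.1, without normalization. Their notes also name DESeq2 1.12.4. The annotation, strand setting and handling of reads with several matches are not given in the sources used here. TPM was computed from the deposited counts and gene lengths. Of the entries, 27 bear names turned into dates (at most 0.243% of counts).

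Fits used edgeR 4.0.16 (TMM, filterByExpr, quasi-likelihood test, Benjamini-Hochberg at 0.05 over all genes) in R 4.3.3, with DESeq2 1.42.0 as an alternative. SE is the log2 change divided by the square root of F. On simulated counts the passage fit found 25.5% of genes changed by log2 2 over the passage range and 67.7% by 3, and the fit against IMOK 60.8% and 83.2%, over 12292 and 12646 genes. The 9 genes, the lists and their markers were chosen with earlier results of these data known. Named beside the 9 were list genes called or 2-fold different at both passages, at most 6 others per list by mean TPM, and for each of the 9 the 2 genes of highest r. Not every list gene called is reported here. Spdef and Ets1 were named after their values were seen. Alternatives were DESeq2, no TMM, other count filters, other passage scales and subsets of libraries, other folds, units and pseudocounts, and leaving out each library.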

Additional observations from a re-analysis of the deposited data

How the results depend on the processing

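Each mSGc condition has 1 library, so a difference between media has no replicate check, and the passage fit rests on 3 residual degrees of freedom. Pairing by replicate number could not be run, as the labels give mSGc none. P10 and P25 were matched by medium or passage as a block instead. Of the 9 genes, 0 were called for passage as reported, 5 with DESeq2 (700 genes of the table against 61), 3 with an untransformed passage number, 3 on P10 and P25 with medium as a block, and 0 to 3 when each library was left out (0 to 329 genes of the table). For the media, a 4-fold limit kept Tfcp2l1 and Elf3 (2 genes), beside 0.284% of all genes higher in SCM at both passages. A 1.5-fold limit gave 5, beside 5.13% of all genes. TMM-scaled CPM (1.67% of all genes), a pseudocount of 0.1 (2.67%) and no filter (0.971%) each gave 4. List genes called for medium numbered 0 as reported, 13 with DESeq2 (271 genes of the table against 3), 2 without a filter, 11 on P10 and P25 with passage as a block, and 0 to 3 leaving out each library. Against IMOK 13 list genes were called, 27 with DESeq2 (2900 genes of the table against 1918), 8 with at least 10 counts in every library, 2 with P10 alone (547 of the table), and 2 to 14 leaving out each library (738 to 1918 of the table). The log2 difference of Grhl3 against IMOK, 0.017 as reported, was -0.070 without TMM, -0.44 with SFM alone and -0.25 to 0.39 leaving out each library (negative without P10 in SCM, P25 in SCM, IMOK replicate 1 or IMOK replicate 3). Klf5 ran from -0.43 to 0.061, positive without IMOK replicate 1, and the passage estimate of Grhl3 from -0.35 to 0.11, positive without P25 in SFM. The cause of these changes was not tested.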
